A study of Mus musculus with 59 samples.

Results

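The genes described here encode cell-adhesion proteins of neurons and glia: classical and related cadherins, protocadherins, neurexins, neuroligins, the leucine-rich repeat LRRTM proteins and the contactin-associated proteins. Members were taken by name from the deposited expression table and kept where their mean over all 59 libraries was at least 0.5 FPKM, a unit that scales read fragments to transcript length and to the mapped total of the library. Of 24346 gene symbols there, 111 matched by name, and 103 passed the level filter, as did 14263 genes in all. The 8 that did not pass were Cdh1, Cdh3, Cdh16, Cdh17, Cdh26, Pcdh12, Pcdhb1 and Pcdha8. The lowest members inside the limit were Cntnap3 at 0.523 FPKM, Pcdha7-g at 0.533 FPKM and Cdh23 at 0.586 FPKM, and the highest outside it were Pcdha8 at 0.149 FPKM and Pcdhb1 at 0.127 FPKM.

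Libraries were made from ventral tegmental area (VTA) tissue of male mice, a part of the midbrain whose dopamine neurons serve reward learning. The design sets cocaine against saline in 4 paradigms. Home cage injection was acute (5 cocaine and 6 saline libraries) or chronic (6 and 6), place conditioning was done with cocaine or saline (6 and 6), and mice self-administered cocaine or saline intravenously (15 and 9). The acute, chronic and conditioning libraries, 35 in number, are called injected here, and those of self-administration number 24. The sources used here do not give strain, age, dose or number of sessions. The labels number libraries as replicates without saying that each came from its own mouse, so p-values measure the spread between libraries.

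Classical cadherins bind like to like across cell contacts and hold on to actin through catenins. Type I cadherins such as Cdh2 and type II cadherins such as Cdh8 and Cdh11 sort neurons and their synapses by kind. Clustered protocadherins, in the alpha, beta and gamma clusters, are expressed in neuron-specific combinations that let a cell tell its own processes from those of others, while the non-clustered delta protocadherins mark particular circuits. Neurexins sit on the presynaptic membrane and bind neuroligins and LRRTM proteins across the synaptic cleft. Contactin-associated proteins organise the axon around the node of Ranvier (Cntnap1, Cntnap2) or act in synaptic adhesion.

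Promoters are shown for 3 members because they are among those that followed dopamine neuron markers across libraries, as set out further down, one upward (Cdh8) and 2 downward (Cntnap5b and Lrrtm1). Each is the 250 bases before the transcription start, 5′ to 3′ on the gene's strand, from RefSeq on GRCm38.p6. Capitals mark the GC box, GGGCGG on either strand. The Cdh8 promoter is at chr8:99416472-99416721 on the minus strand, that of Cntnap5b at chr1:99772151-99772400 on the plus strand and that of Lrrtm1 at chr6:77242227-77242476 on the plus strand.
Cdh8: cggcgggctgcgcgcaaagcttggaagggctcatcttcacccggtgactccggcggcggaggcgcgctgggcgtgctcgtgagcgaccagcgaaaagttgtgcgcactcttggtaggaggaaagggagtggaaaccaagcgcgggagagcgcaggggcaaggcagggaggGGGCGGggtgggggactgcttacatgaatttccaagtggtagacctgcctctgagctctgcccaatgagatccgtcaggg
Cntnap5b: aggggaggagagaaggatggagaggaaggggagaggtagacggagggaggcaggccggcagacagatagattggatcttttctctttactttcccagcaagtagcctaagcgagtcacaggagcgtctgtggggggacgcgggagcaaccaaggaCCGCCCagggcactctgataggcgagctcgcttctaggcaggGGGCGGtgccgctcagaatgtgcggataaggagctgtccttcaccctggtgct
Lrrtm1: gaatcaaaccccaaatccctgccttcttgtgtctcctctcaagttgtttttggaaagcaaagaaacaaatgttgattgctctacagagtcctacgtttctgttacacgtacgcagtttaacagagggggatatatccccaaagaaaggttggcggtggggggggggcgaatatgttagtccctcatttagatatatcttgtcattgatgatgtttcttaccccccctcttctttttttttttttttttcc
The window of Cdh8 held 1 GC box and 20 CpG dinucleotides, that of Cntnap5b 2 GC boxes and 12 CpG, and that of Lrrtm1 no GC box and 5 CpG. Over 32851 RefSeq promoters of the same length, 32.7% held a GC box and the median was 6 CpG. Neither AAAGGTCA, the monomer element of Nr4a factors, nor TGTTTAC, a forkhead element, was found on either strand of the 3 windows. AAAGGTCA was in 1.34% of all promoters and TGTTTAC in 3.17%. Of the 8 members that followed the markers, 5 had an entry in the promoter table, which were these 3, Cdh12 and Nrxn3.

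Adhesion genes ranged over 2 orders of magnitude in the VTA, from Cntnap3 to Cntnap1, which was the highest member at 57.5 FPKM (lowest 30.6, highest 68.2 over 59 libraries). Cntnap1 joins the myelin loops to the axon beside the node. A mean of at least 1 FPKM was reached by 90 members and of at least 10 FPKM by 29. None was listed at exactly 0 in any library, though Pcdha7-g came down to 2.17e-15 FPKM. FPKM is a level per transcript length, so these levels can be set beside each other as far as the authors' transcript models allow.

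Among neurexins, Nrxn2 averaged 53.5 FPKM (28.0 to 79.0 over libraries) and Nrxn3 35.5 FPKM (27.3 to 48.2). Among their postsynaptic partners, Nlgn2, the neuroligin of inhibitory synapses, averaged 51.2 FPKM (37.8 to 58.8). Nlgn3, found at both kinds of synapse, averaged 18.7 FPKM (13.9 to 31.3), and Nlgn1, of excitatory synapses, 11.7 FPKM (9.54 to 14.8). The range of Nlgn2 lay wholly above those of Nlgn3 and Nlgn1, which overlapped. The 4 LRRTM genes, postsynaptic organisers of excitatory synapses, lay close together, from Lrrtm2 at 16.9 FPKM to Lrrtm4 at 9.54 FPKM.

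Type II cadherins held 13.7% of the members' summed FPKM. They ran from Cdh8 at 24.4 FPKM to Cdh12 at 1.68 FPKM. Type I cadherins ran from Cdh2 (N-cadherin) at 31.6 FPKM to Cdh15 (M-cadherin) at 0.877 FPKM. Cdh13, which has no cytoplasmic tail and is held in the membrane by a lipid anchor, reached 41.0 FPKM, while Cdh23, the tip-link cadherin of hair cells, lay at 0.586 FPKM. Among delta protocadherins Pcdh10 led at 38.0 FPKM and Pcdh9 at 36.8 FPKM, and the lowest of each kind were Pcdh18 at 3.94 FPKM and Pcdh20 at 5.27 FPKM.

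Clustered protocadherins accounted for 57 of the 103 members and were mostly low. Beta genes ran from Pcdhb17 at 4.04 FPKM to Pcdhb4 at 0.816 FPKM. Of the C-type genes, which are expressed without the random promoter choice of their neighbours, Pcdhac2, Pcdhgc3 and Pcdhgc4 were the highest of their clusters. Pcdhac2 had 11.7 FPKM and Pcdhac1 1.23 FPKM, against a median of 1.50 FPKM for the 12 alpha genes outside the C type, and Pcdhac1 and Pcdhac2 together held 42.9% of the alpha sum. Pcdhgc3 had 25.0 FPKM, Pcdhgc4 13.7 FPKM and Pcdhgc5 4.32 FPKM, the last below Pcdhga7 at 6.28 FPKM. The 3 gamma C genes held 41.0% of the gamma sum, against 43.4% for the 12 gamma A and 15.7% for the 7 gamma B genes. The lowest gamma gene was Pcdhgb8 at 0.690 FPKM. All genes of the alpha cluster share their last exons, as do all gamma genes, on mouse chromosome 18. The sources used here do not say how the authors' counting split reads of the shared exons, so levels of single alpha and gamma genes are uncertain.

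**Figure D1:**
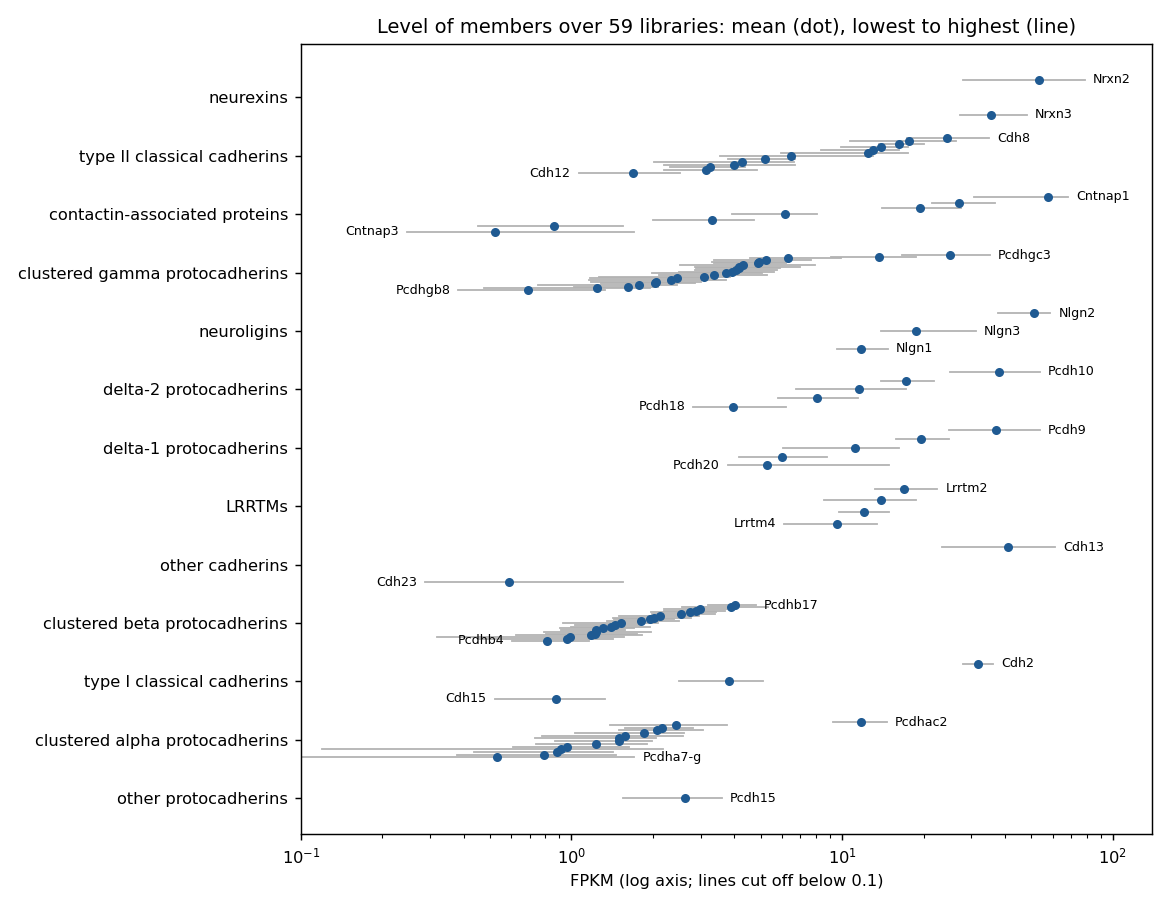
Mean FPKM of members over 59 libraries (dots) with the lowest and highest library (lines), on a log axis, grouped by subfamily. Nrxn2, Nrxn3, Nlgn2, Cntnap1, Pcdh9, Pcdh10, Cdh13 and Cdh2 lie above 30 FPKM, and most clustered protocadherins below 5 FPKM.

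Within each paradigm, cocaine libraries were set against saline libraries on log2(FPKM + 1), and a gene was called where its adjusted p was under 0.05 over all 14263 genes tested. No member was called in any paradigm. Among all genes, too, 0% were called in each of the 4 comparisons by limma. At an unadjusted p under 0.05, 6 members passed after acute injection (3.91% of all genes passed), 5 after chronic injection (7.21%), 4 after conditioning (8.15%) and 0 after self-administration (3.53%). These differences were all negative, and among all genes 1.73%, 3.27%, 4.39% and 1.77% had a negative difference at that p in the same order of paradigms. In every paradigm more members had a negative than a positive difference, 80 of 103 after acute injection, 69 after chronic injection, 66 after conditioning and 66 after self-administration. The median difference of the members was -0.05, -0.03, -0.04 and -0.02 in that order, where the median of all genes was within 0.01 of 0.

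Members also tend to have long transcripts, with a median longest transcript of 4733 bases against 3383 bases for all genes tested. With each library's trend on transcript length removed, the 4 medians were -0.03, -0.01, -0.04 and -0.02. Among the members named below, the differences of Pcdh15 (-0.08) and Nlgn1 (-0.06) after acute injection and of Pcdh19 (-0.08) and Pcdh17 (-0.07) after chronic injection were smaller by more than 1.5 times with that trend removed.

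After acute injection Pcdha6, an alpha protocadherin, had 0.780, 1.03, 1.12, 1.36 and 1.44 FPKM in cocaine libraries, against 1.32 to 1.93 FPKM (median 1.68) in 6 saline libraries. All but the 2 highest cocaine values lay below every saline value. The difference was -0.32 ± 0.09 (SE) on log2(FPKM + 1), with an adjusted p of 0.985 by limma. Cdh18, a type II cadherin of neurons, had 11.6, 12.3, 12.3, 12.4 and 12.6 FPKM in cocaine libraries, against 12.5 to 14.5 FPKM (median 13.7) in saline libraries. Only the highest cocaine library overlapped the saline range, and the difference was -0.13 ± 0.04 (adjusted p 0.985). Pcdhb16, Pcdh15, Cntnap5a and Nlgn1 followed with differences of -0.18, -0.13, -0.21 and -0.12, each with the same adjusted p. In this paradigm 17 of 18 dopamine neuron markers were negative (median -0.41). Their summed level was 788 to 2471 FPKM in cocaine libraries and 1457 to 2704 FPKM in saline libraries. Their mean log2(FPKM + 1) was 4.41, 4.92, 4.93, 5.92 and 5.93 in cocaine libraries, against 5.36 to 6.11 (median 5.52) in saline libraries. The cocaine libraries thus lay partly below and partly within the saline range. All 13 oligodendrocyte markers were positive, at 7325 to 9693 FPKM in cocaine libraries and 6540 to 8396 FPKM in saline libraries, and no marker of either list was at 0 or was called. In bulk tissue fewer cells of a type and less RNA per cell cannot be told apart. With the dopamine marker level as a covariate, in a fit chosen after the data were seen, the members' median after acute injection was -0.02. The part of dopamine neurons in the members' negative median was not tested.

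After chronic injection Pcdh15, a cadherin of hair-cell tip links that oligodendrocyte precursors also express, had 2.33 to 2.71 FPKM (median 2.40) in cocaine libraries, against 2.53 to 3.12 FPKM (median 2.87) in saline libraries. The ranges overlapped between 2.53 and 2.71 FPKM. The difference was -0.17 ± 0.05 (adjusted p 0.508), while 5 of 8 markers of oligodendrocyte precursors were positive. Of the 18 dopamine neuron markers, 17 were positive in this paradigm (median 0.18), at 979 to 3093 FPKM in cocaine libraries and 769 to 3090 FPKM in saline libraries. Cdh5, the cadherin of endothelial junctions, had 2.85 to 4.37 FPKM (median 3.34) in cocaine libraries, against 4.01 to 4.30 FPKM (median 4.16) in saline libraries. Its cocaine range reached beyond the saline range on both sides, and the difference was -0.20 ± 0.07 (adjusted p 0.617). Of 12 endothelial and pericyte markers 11 were negative (median -0.15) and 0 were called (0% of all genes). At an unadjusted p under 0.05, 6 of the 12 passed, where 7.21% of all genes passed. The summed level of the 12 markers was 134 to 171 FPKM in cocaine libraries, against 154 to 179 FPKM in saline libraries, and no marker was at 0. The part of vessel cells in the Cdh5 difference was not tested. Pcdhac1, Pcdh19, Pcdh1 and Pcdh17 had differences of -0.14, -0.13, -0.11 and -0.12, with adjusted p of 0.669 to 0.687.

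After conditioning Pcdh17, a delta-2 protocadherin of presynaptic and postsynaptic zones, had 15.3 to 16.7 FPKM (median 15.9) in cocaine libraries, against 16.7 to 18.5 FPKM (median 17.7) in saline libraries. The highest cocaine library just passed the lowest saline library, and the difference was -0.13 ± 0.04 (adjusted p 0.594). Lrrtm1 had 10.1 to 15.5 FPKM (median 12.7) in cocaine libraries and 13.2 to 15.9 FPKM (median 14.7) in saline libraries. The ranges overlapped widely, and the difference was -0.20 ± 0.08 (adjusted p 0.594). Pcdhb9 had a difference of -0.14, and the positive ones nearest to the threshold were those of Pcdhac2 and Cntnap5a, both 0.11, with adjusted p of 0.603 to 0.641.

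After self-administration, the largest design, the 6 members with the smallest p all had an adjusted p of 1.0. Pcdhb13 had 0.719 to 1.32 FPKM (median 1.09) in cocaine libraries and 0.941 to 1.42 FPKM (median 1.28) in saline libraries, a difference of -0.11 ± 0.06. Pcdh7, a delta-1 protocadherin, had 15.8 to 24.7 FPKM (median 19.2) in cocaine libraries and 16.1 to 19.5 FPKM (median 17.3) in saline libraries, a difference of 0.13 ± 0.07. The saline range of Pcdh7 lay within its cocaine range, and the ranges of Pcdhb13 overlapped. Lrrtm4, Pcdha6, Cntnap2 and Pcdha7 had differences of -0.12, 0.12, -0.12 and -0.21. With library weights Pcdh7 came to 0.06 and Lrrtm4 to -0.23 (adjusted p 0.0802). Pcdha6, the gene with the smallest p after acute injection, was thus positive here. The cocaine effect on Pcdha6 differed between self-administration and acute injection by 0.44 ± 0.13, with an adjusted p of 1.0.

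Averaged over paradigms, with the paradigm as a term of the fit, 0 members and 0.00701% of all genes were called, and 11 members and 12.6% of all genes had an unadjusted p under 0.05. All 11 were negative, where 6.34% of all genes were negative at that p, and the members' median was -0.03. Pcdh15 led with -0.12 ± 0.04 (adjusted p 0.256), followed by Pcdhb13 at -0.10, Cntnap2 at -0.08, Cdh23 at -0.12, Pcdh18 at -0.11 and Pcdh17 at -0.08. In each paradigm the mean of Pcdh15 was lower in cocaine libraries. It averaged 2.40 ± 0.14 FPKM in acute cocaine libraries (SD, n = 5) and 2.72 ± 0.17 FPKM in saline libraries (SD, n = 6), and 2.44 ± 0.14 and 2.86 ± 0.19 FPKM in chronic cocaine and saline libraries (SD, n = 6 each). It averaged 2.47 ± 0.27 and 2.58 ± 0.16 FPKM in conditioning cocaine and saline libraries (SD, n = 6 each). In self-administration it averaged 2.57 ± 0.36 FPKM in cocaine libraries (SD, n = 15) and 2.91 ± 0.59 FPKM in saline libraries (SD, n = 9). When limma weighted libraries by their quality, Pcdh15 was called at -0.13 (adjusted p 0.026) and Cdh23 came to -0.07. The 6 differences between the cocaine effects of the paradigms held 0 called members and 0% of all genes. At an unadjusted p under 0.05 they held 0 members for chronic minus acute (1.3% of all genes), 2 for conditioning minus acute (1.58%) and 1 for self-administration minus acute (1.79%). The same count was 3 for conditioning minus chronic (2.28%), 1 for self-administration minus chronic (2.33%) and 1 for self-administration minus conditioning (3.05%).

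**Figure D2:**
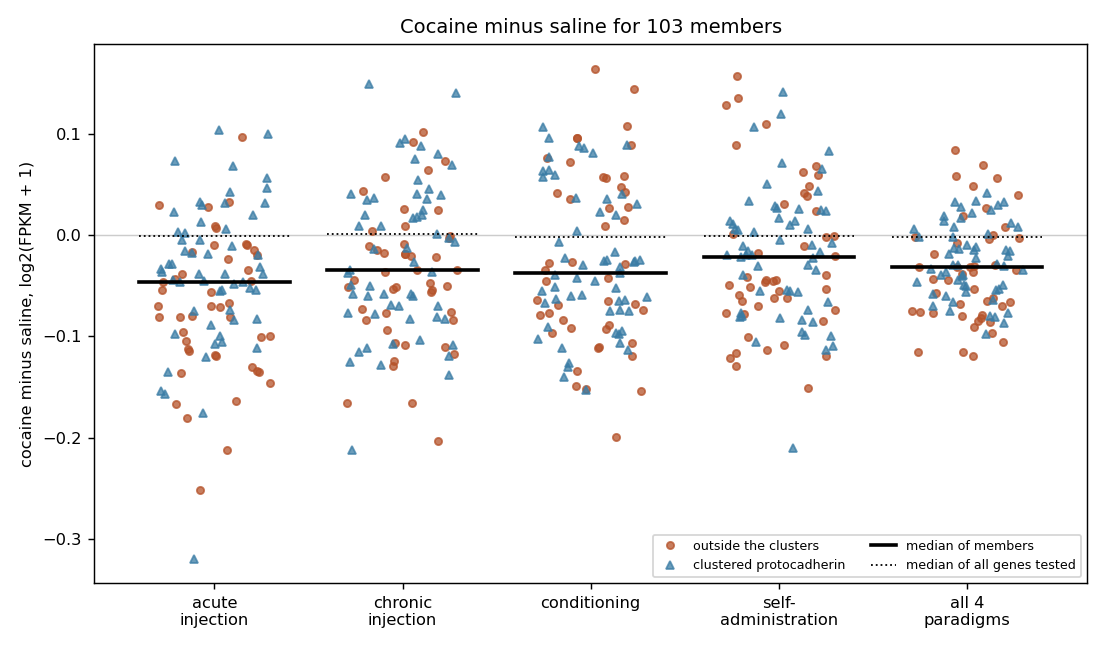
Cocaine minus saline on log2(FPKM + 1) for the 103 members in each paradigm and in the fit over all 4; each point is a gene, the thick bar is the members' median and the dotted bar that of all genes tested. The members' median lies between -0.05 and -0.02 in every column, and no member was called.

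Other genes of these adhesion systems were not called either, as 0% of all genes were called in each of the 4 comparisons. Of 14 catenins and cadherin partners, 20 extracellular partners of neurexins and neuroligins, 20 of their intracellular scaffolds, 12 contactins and node partners, 33 other synaptic adhesion receptors and 14 genes of protocadherin promoter choice, 0 passed in any of the 4 paradigms. After acute injection 19 of 20 scaffolds and 28 of 33 other receptors had negative differences, with medians of -0.10 and -0.07. After chronic injection 13 of 14 promoter choice genes, among which are CTCF and cohesin, were negative with a median of -0.05. The share of all genes with a negative difference is not given here, and these lists were not examined with the transcript length trend removed. These counts therefore do not set the lists apart from other genes.

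Self-administration libraries differed from the injected ones in many adhesion genes, as they did in most genes. Their cocaine libraries (n = 15) were set against the mean of the 3 other cocaine groups (17 libraries), and in a separate fit their saline libraries (n = 9) against the 3 other saline groups (18 libraries). In cocaine libraries 47 members were called, 39 higher and 8 lower, or 45.6% of members where 57.2% of all genes were called (31.1% higher and 26.1% lower). In saline libraries 42 members were called, 31 higher and 11 lower, or 40.8% of members where 57.8% of all genes were called (30.8% higher and 27% lower). With the same sign in both, 26 members were called higher and 7 lower, where 26.3% of all genes were called higher in both and 22.9% lower. The members' median was 0.08 in cocaine and 0.06 in saline libraries, where that of all genes was 0.02 in both. With the trend on transcript length removed, the members' medians were 0.02 and 0.00. The labels give no batch, so the paradigm and any batch it was processed in cannot be told apart.

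Cdh19, a type II cadherin of Schwann cells and other glia, had 6.50 to 10.4 FPKM (median 8.32) in self-administration cocaine libraries, against 3.68 to 6.92 FPKM (median 5.17) in the other cocaine libraries. These ranges overlapped slightly. In saline libraries it had 6.42 to 13.0 FPKM (median 7.39) in self-administration and 3.53 to 6.14 FPKM (median 5.17) in the other paradigms, which did not overlap. Ranges did not overlap for 0 members in cocaine libraries (3.72% of all genes) and for 2 in saline libraries (8.05% of all genes). Cdh19 was 0.55 ± 0.06 higher in cocaine libraries (adjusted p 1.85e-08) and 0.55 ± 0.08 higher in saline libraries (adjusted p 5.99e-07).

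The other gene whose saline ranges were apart was Pcdhgc4, a C-type gamma protocadherin needed for interneuron survival. In cocaine libraries it had 12.5 to 18.8 FPKM (median 16.0) in self-administration and 9.11 to 14.4 FPKM (median 11.6) in the other paradigms, a difference of 0.40 ± 0.05 (adjusted p 5.76e-08). It had 14.4 to 18.4 FPKM (median 18.0) in self-administration saline libraries and 11.0 to 13.5 FPKM (median 12.0) in the other saline libraries, a difference of 0.45 ± 0.04 (adjusted p 6.34e-10). Pcdhgc5, the neighbouring C-type gene, was higher by 0.59 ± 0.06 in cocaine and 0.49 ± 0.06 in saline libraries. With dopamine neuron and oligodendrocyte levels as covariates Pcdhgc5 was no longer called in either, at 0.19 (adjusted p 0.249) and 0.27 (adjusted p 0.0589). The third, Pcdhgc3, was not called, at 0.08 in cocaine (adjusted p 0.328) and 0.15 in saline libraries (adjusted p 0.0518). Among gamma A genes 8 of 12 were called higher in both comparisons, Pcdhga2 (0.27 in cocaine and 0.34 in saline libraries) and Pcdhga7 (0.29 and 0.33) among them. With the same covariates Pcdhga2 was called in neither, at 0.14 (adjusted p 0.53) and 0.22 (adjusted p 0.0713), and Pcdhga7 was not called in cocaine libraries, at 0.16 (adjusted p 0.419). Of the 7 gamma B genes 0 were called in both, and 4 of 21 beta genes were called higher in both. Of the 12 alpha genes outside the C type 1 was called in both, Pcdha9, which was lower. The C-type alpha gene Pcdhac2 was called higher in both, at 0.12 in cocaine and 0.13 in saline libraries. Of all genes 26.3% were called higher and 22.9% lower in both. The summed FPKM of the gamma cluster was 80 to 134 (median 115) in self-administration and 80.8 to 107 (median 98.7) in the other cocaine libraries, and 92.1 to 135 (median 121) in self-administration and 94.7 to 109 (median 98.0) in the other saline libraries. As gamma genes share exons, these counts are over genes that may share reads.

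Cntnap2, which clusters potassium channels beside the node, had 25.0 to 35.7 FPKM (median 31.1) in self-administration cocaine libraries and 21.5 to 26.5 FPKM (median 23.4) in the other cocaine libraries. In saline libraries it had 24.7 to 36.7 FPKM (median 34.4) in self-administration and 21.4 to 27.5 FPKM (median 24.5) in the other paradigms. The cocaine ranges overlapped between 25.0 and 26.5 FPKM and the saline ranges between 24.7 and 27.5 FPKM. Cntnap2 was higher by 0.36 ± 0.04 in cocaine and 0.42 ± 0.05 in saline libraries. With the covariates it was called in neither, at 0.24 (adjusted p 0.0533) and 0.11 (adjusted p 0.336), and with the transcript length trend removed it stayed called at 0.22 in cocaine libraries. Among delta protocadherins Pcdh11x (0.33 in cocaine and 0.36 in saline libraries), Pcdh18 (0.33 and 0.35), Pcdh19 (0.27 and 0.33) and Pcdh20 (0.43 and 0.29) were higher in both. Pcdh20 in self-administration cocaine libraries ran from 4.77 to 14.9 FPKM (median 6.02), and the library next to the highest had 7.31 FPKM. Without the highest library the Pcdh20 difference in cocaine libraries was 0.35. With the covariates Pcdh20 was called in neither, at 0.13 (adjusted p 0.667) and 0.20 (adjusted p 0.107), and Pcdh11x (0.05, adjusted p 0.757) and Pcdh18 (0.14, adjusted p 0.548) lost their saline calls. With the transcript length trend removed Pcdh11x was 0.21 in cocaine libraries, and Pcdh19 was 0.13 in cocaine and 0.20 in saline libraries, all still called.

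Nrxn2 was lower in self-administration. In cocaine libraries Nrxn2 had 28.0 to 54.1 FPKM (median 47.5) in self-administration and 40.0 to 69.8 FPKM (median 59.4) in the other paradigms, a difference of -0.40 ± 0.09 (adjusted p 0.000308). In saline libraries it had 31.4 to 53.6 FPKM (median 42.4) in self-administration and 52.0 to 79.0 FPKM (median 61.2) in the other paradigms, a difference of -0.53 ± 0.06 (adjusted p 8.15e-08). The saline ranges overlapped only at their edges and the cocaine ranges more widely. Nrxn3 was not called, at -0.14 in cocaine and -0.09 in saline libraries. In cocaine libraries the neuroligins Nlgn1 (0.13) and Nlgn3 (0.21) were called higher and Nlgn2 (-0.08, adjusted p 0.117) was not called, while in saline libraries no neuroligin was called. Whether the neuroligin differences themselves differed between cocaine and saline libraries was not tested.

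The other 6 called lower in both were Cdh22 (-0.41 in cocaine and -0.54 in saline libraries), Pcdh8 (-0.36 and -0.41), Cdh20 (-0.24 and -0.35), Cdh24 (-0.21 and -0.28), Cdh15 (-0.19 and -0.16) and Pcdha9 (-0.12 and -0.16). Pcdh8 is a delta-2 protocadherin that neuronal activity induces and that takes part in endocytosis of Cdh2. In cocaine libraries it had 7.64 to 11.6 FPKM (median 9.47) in self-administration and 6.74 to 17.0 FPKM (median 12.9) in the other paradigms, where the wider range took in the narrower. In saline libraries it had 7.88 to 11.5 FPKM (median 10.3) in self-administration and 11.1 to 17.2 FPKM (median 13.4) in the other paradigms, which overlapped only at their edges. In cocaine libraries the Cdh24 call was lost without any 1 of 8 libraries (adjusted p up to 0.0731) or with no filter on low values (adjusted p 0.052), and the Pcdha9 call without any 1 of 9 (adjusted p up to 0.0619). The saline call of Cdh15 was lost with quantile normalization (-0.12, adjusted p 0.0612). With the covariates Cdh22 (-0.22, adjusted p 0.316), Cdh24 (-0.09, adjusted p 0.751) and Pcdha9 (-0.20, adjusted p 0.196) were not called in cocaine libraries, and Cdh15 was called in neither set (-0.14, adjusted p 0.278, in cocaine and -0.26, adjusted p 0.0722, in saline libraries).

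**Figure D3:**
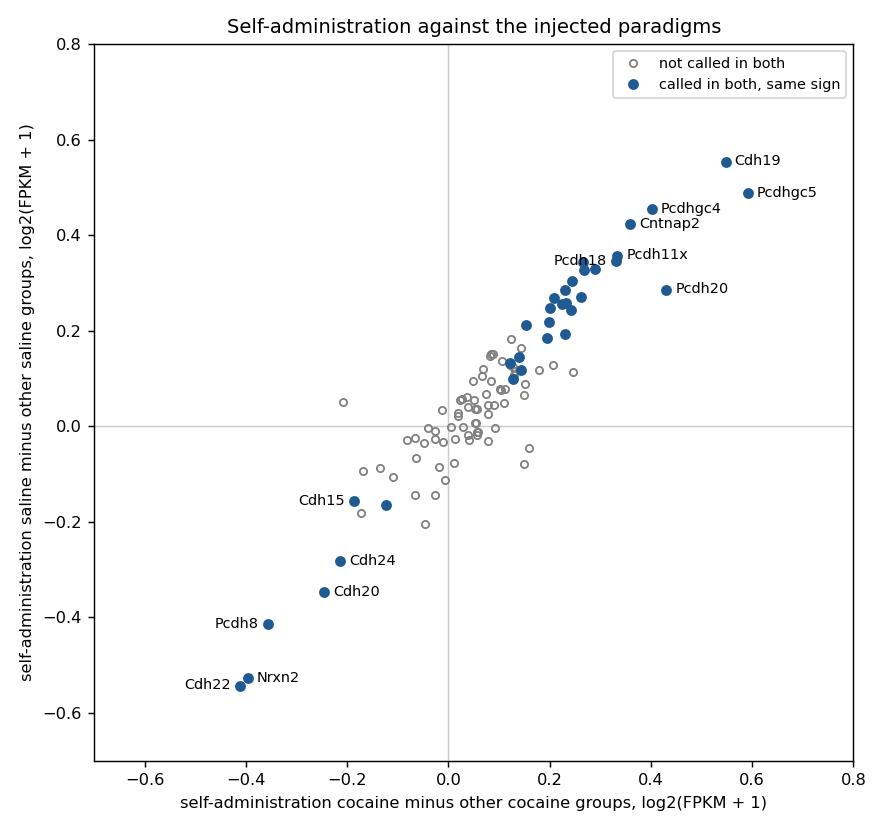
Difference of each member between self-administration and the mean of the 3 injected paradigms, in cocaine libraries (horizontal) and in saline libraries (vertical), on log2(FPKM + 1). Filled points were called with the same sign in both, 26 higher and 7 lower, with Cdh19 and Pcdhgc5 at one end and Cdh22 and Nrxn2 at the other.

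Many cell-type markers differed in this comparison, where 26.3% of all genes were called higher in both cocaine and saline libraries and 22.9% lower. Of 13 oligodendrocyte markers 11 were called lower in both cocaine and saline libraries, with a summed level of 4004 to 9265 FPKM in self-administration and 6540 to 10890 FPKM in injected libraries. Of 8 markers of oligodendrocyte precursors 6 were called lower (Olig1, Olig2, Sox10, Gpr17, C1ql1 and Bcas1) and 1 higher (Pdgfra), while Cspg4 was not called in both. The summed level of the 8 did not overlap, at 183 to 368 FPKM in self-administration and 400.2 to 570 FPKM in injected libraries. That sum rests mostly on Olig1, Bcas1 and C1ql1, with means of 131, 119.5 and 66.9 FPKM over all libraries, against 11.9 FPKM for Pdgfra. Whether precursor cells differed in number was not tested. Of 11 astrocyte markers 6 were higher and 2 lower, at 1056 to 1691 FPKM in self-administration and 1063 to 1308 FPKM in injected libraries. Of 18 dopamine neuron markers 5 were lower, at 737 to 2804 FPKM in self-administration and 769 to 3093 FPKM in injected libraries. Of 10 microglia markers 5 were lower, at 164 to 306 FPKM in self-administration and 226 to 378 FPKM in injected libraries. Of 10 GABA neuron markers 2 were higher and 5 lower, and of 12 endothelial and pericyte markers 3 were higher and 2 lower. No marker of these lists was at 0 in all libraries of a set.

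With the dopamine neuron and oligodendrocyte levels as covariates, a fit added after the data were seen, 13 members were called in cocaine libraries (11 higher, 2 lower), where 18% of all genes were called (11% higher, 7.03% lower). In saline libraries 12 were called (4 higher, 8 lower), where 22.2% of all genes were called (10.7% higher, 11.5% lower). Cdh19 was called in both, at 0.80 in cocaine (adjusted p 0.00011) and 0.49 in saline libraries (adjusted p 0.0179), and so was Pcdh8, at -0.52 (adjusted p 0.00719) and -0.56 (adjusted p 0.000748). Pcdhgc4 was not called in cocaine libraries at 0.23 (adjusted p 0.0539) and was called in saline libraries at 0.32. Nrxn2 was not called in cocaine libraries at -0.39 (adjusted p 0.144) and was called in saline libraries at -0.55. Pcdh19 came to 0.02 in cocaine and 0.01 in saline libraries, and Cdh20 to 0.01 and -0.08. In cocaine libraries the oligodendrocyte level was 7.03 to 7.84 in self-administration and 7.74 to 8.39 in the other paradigms (mean log2(FPKM + 1)). In saline libraries it was 7.04 to 7.91 and 7.705 to 8.24. As these ranges overlapped little, the fit can hardly separate that level from the paradigm, here and for the genes above. The part of cell make-up in the lost calls was not tested.

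Within the partner lists the called genes went both ways. Called higher and lower in both comparisons were 4 and 4 of 14 catenins and cadherin partners, 6 and 3 of 20 neurexin and neuroligin partners, 8 and 5 of 20 scaffolds, 2 and 2 of 12 contactins and node partners, and 12 and 9 of 33 other receptors. Of 14 genes of protocadherin promoter choice 9 were higher and 2 lower. The 3 saline groups of the injected paradigms held 0 called members by a moderated F test (0.477% of all genes), and 8 members had an unadjusted p under 0.05 (10.2% of all genes). Pcdh19 had the smallest p among these members (adjusted p 0.266), followed by Pcdhac2, Cdh18 and Pcdhga2.

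Dopamine neuron markers varied between libraries of the same group, and several adhesion genes followed their level. This level was taken as the mean log2(FPKM + 1) of 18 markers, which include Th, the enzyme that makes the dopamine precursor, and Slc6a3, the dopamine transporter, and no member. It ran from 4.22 to 5.74 in self-administration libraries and from 4.41 to 6.23 in injected libraries. A gene's slope is its change in log2(FPKM + 1) per unit of that level within groups, fitted separately in the 2 sets, which share no library. In self-administration libraries 8 members were called (7.77%, against 2.34% of all genes), 4 positive (1.67% of all genes) and 4 negative (0.673%). In injected libraries 29 members were called (28.2%, against 25.7% of all genes), 18 positive and 11 negative (12.8% of all genes in each direction). The 8 of the smaller set were also called, with the same sign, in the larger one, as were 1.61% (positive) and 0.554% (negative) of all genes.

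The 4 positive members were Cntnap4, Cdh8, Cdh11 and Nrxn3. Cntnap4, a contactin-associated protein that in mice is known from dopamine and interneuron synapses, lies on chromosome 8 (mm10, 112570043 to 112882717, plus strand). Cntnap4 had 17.5 and 20.3 FPKM in the 2 self-administration libraries with the lowest dopamine level and 26.3 and 27.1 FPKM in the 2 with the highest. In injected libraries it had 15.1 and 14.3 FPKM at the low end and 27.5 and 24.6 FPKM at the high end, where Th had 124 and 135 FPKM against 691 and 655 FPKM. The Cntnap4 slope was 0.35 ± 0.06 in self-administration libraries (adjusted p 0.000397) and 0.44 ± 0.03 in injected libraries (adjusted p 5.4e-14).

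Cdh8, whose promoter is shown above, lies on chromosome 8 (mm10, 99024471 to 99416471, minus strand). Cdh8 had 18.9 and 25.5 FPKM at the low end and 35.0 and 31.9 FPKM at the high end of self-administration libraries, and 18.3 and 20.6 FPKM against 29.3 and 26.6 FPKM in injected libraries. Its slope was 0.45 ± 0.08 in self-administration libraries (adjusted p 0.000859) and 0.42 ± 0.04 in injected libraries (adjusted p 2.82e-09). Cdh11, another type II cadherin, had slopes of 0.38 ± 0.07 and 0.41 ± 0.04 in self-administration and injected libraries. Nrxn3, on chromosome 12, had slopes of 0.33 ± 0.06 and 0.32 ± 0.04. Nrxn2 had a slope of -0.18 (adjusted p 0.51) in self-administration and of 0.20 (called) in injected libraries. No neuroligin was called in either set, with slopes from -0.17 to 0.10.

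The 4 negative members were Lrrtm1, Cdh12, Pcdh11x and Cntnap5b. Lrrtm1, whose promoter held no GC box, had 16.0 and 18.7 FPKM at the low end and 10.7 and 9.11 FPKM at the high end of self-administration libraries, and 14.3 and 16.6 FPKM against 10.9 and 10.1 FPKM in injected libraries. Its slope was -0.44 ± 0.09 in self-administration libraries (adjusted p 0.00248) and -0.26 ± 0.05 in injected libraries (adjusted p 0.000161). Lrrtm1 lies inside Ctnna2 on the opposite strand, as Lrrtm2 and Lrrtm3 lie inside other alpha catenin genes, and the sources used here do not say whether reads were counted by strand. Cdh12, a type II cadherin, had 2.36 and 2.51 FPKM at the low end and 1.67 and 1.24 FPKM at the high end of self-administration libraries, with slopes of -0.29 ± 0.08 there and -0.28 ± 0.04 in injected libraries. Pcdh11x, on the X chromosome, had slopes of -0.29 ± 0.07 and -0.21 ± 0.04, and Cntnap5b of -0.38 ± 0.10 and -0.23 ± 0.04. In self-administration libraries the Cntnap5b call was lost with no filter on low values (adjusted p 0.0583) and with quantile normalization (adjusted p 0.0522). The Cdh12 call was lost under both (adjusted p 0.0519 and 0.0731) and with a filter at 1 FPKM (adjusted p 0.0502).

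Most of these self-administration calls were lost when 2 libraries were left out. Without the 2 libraries farthest from the median level, which are the cocaine and the saline library of the highest level, Cdh8 remained called at 0.41 (adjusted p 0.0481) and the other 7 kept their sign with adjusted p from 0.0605 to 0.252. In injected libraries, removal of the 2 farthest left all 8 called. Removal also narrows the range of levels and leaves fewer libraries. Leaving out the self-administration libraries of lowest level was not tested, and the share of all genes still called was not computed.

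**Figure D4:**
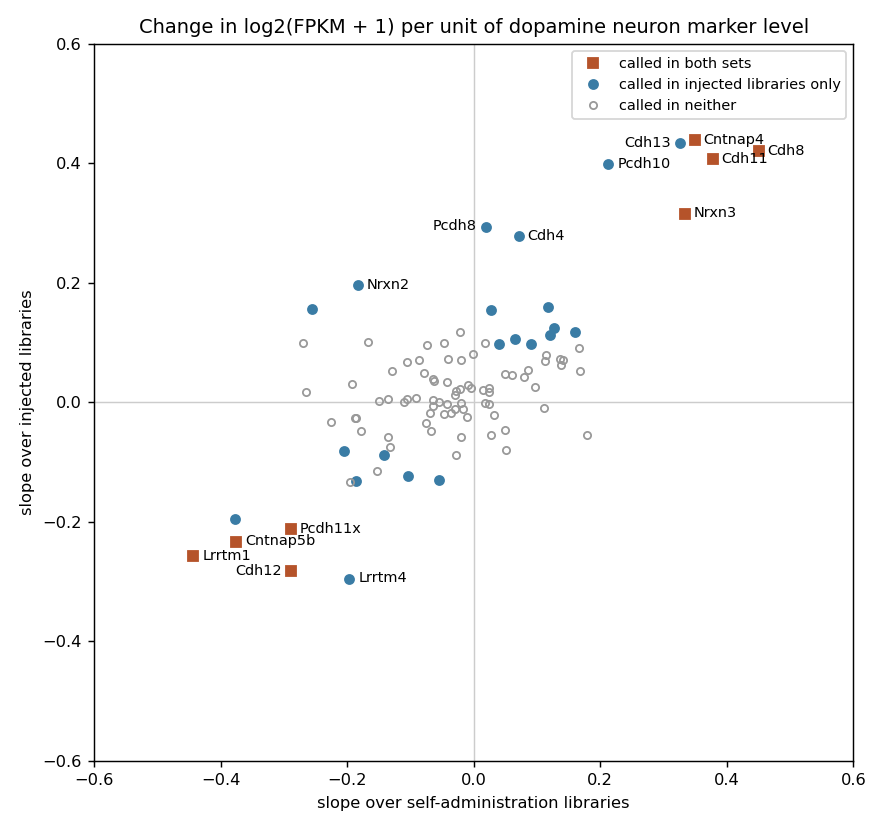
Slope of each member on the dopamine neuron marker level in 24 self-administration libraries (horizontal) and 35 injected libraries (vertical), in log2(FPKM + 1) per unit. The 8 squares were called in both sets, with Cntnap4, Cdh8, Cdh11 and Nrxn3 at the upper right and Lrrtm1, Cdh12, Pcdh11x and Cntnap5b at the lower left.

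Among members called in injected libraries only, Cdh13 had a slope of 0.33 (adjusted p 0.0774) in self-administration and 0.43 in injected libraries, and Pcdh10 of 0.21 (adjusted p 0.139) and 0.40. Both have levels near 40 FPKM. Lrrtm4 had slopes of -0.20 (adjusted p 0.193) and -0.30. Of the 57 clustered protocadherins 0 were called in self-administration (2.34% of all genes) and 7 in injected libraries (25.7% of all genes). All 7 were positive, as were 12.8% of all genes in injected libraries, and none was above 0.16. Whether the slopes differed between the sets was tested in a fit added after the data were seen: 0 members were called (0.00701% of all genes) and 12 had an unadjusted p under 0.05 (15% of all genes). The smallest p was that of Cdh22, whose slope was -0.27 in self-administration and 0.10 in injected libraries (difference -0.37 ± 0.11, adjusted p 0.219). Among partners, Ctnna1 (alpha-E-catenin) was called in both sets, at 0.21 in self-administration and 0.23 in injected libraries, and it was the only one of 14 catenins and cadherin partners. Clstn2 (positive) was the only one of 20 neurexin and neuroligin partners called in both, and none of 20 scaffolds was. Of 12 contactins and node partners Cntn3 was called negative in both, and of 33 other receptors Slitrk4 was positive and Lrfn2 negative. None of 14 genes of protocadherin promoter choice was called in both. Of all genes 1.61% were called positive and 0.554% negative in both.

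**Figure D5:**
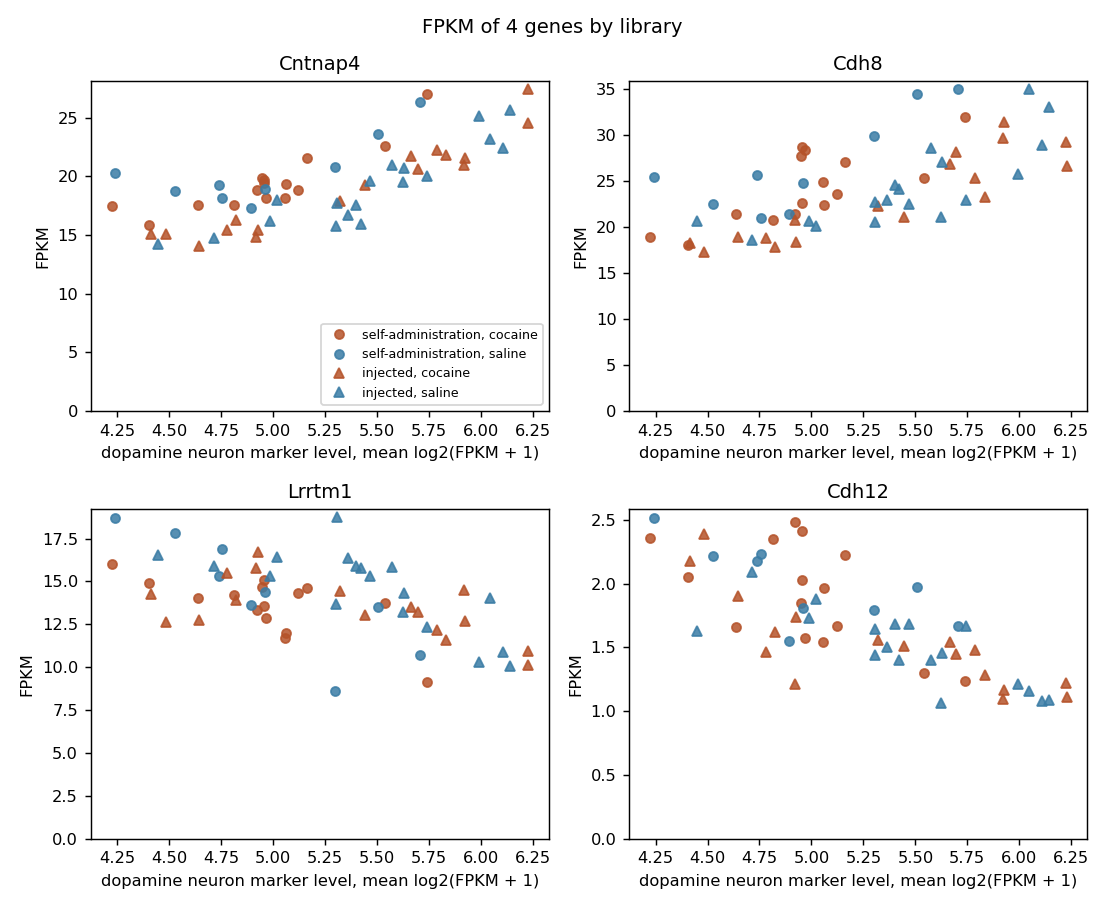
FPKM of Cntnap4, Cdh8, Lrrtm1 and Cdh12 in each library against its dopamine neuron marker level (mean log2(FPKM + 1) of 18 markers); circles are self-administration and triangles injected libraries, orange cocaine and blue saline. With cocaine and saline libraries fitted together, slopes were positive for Cntnap4 and Cdh8 and negative for Lrrtm1 and Cdh12 in both library sets. Slopes within either treatment alone were not fitted.

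Other cell-type levels gave fewer shared slopes. On the oligodendrocyte level 2 members were called in self-administration libraries (1.94%, against 6.42% of all genes) and 10 in injected libraries (9.71%, against 13% of all genes). Pcdh19, the delta-2 protocadherin mutated in a human epilepsy of girls, was called in both, at -0.47 ± 0.13 (adjusted p 0.0319) in self-administration and -0.56 ± 0.12 (adjusted p 0.00213) in injected libraries. Of all genes 2.06% were called positive and 0.631% negative in both. Without the 2 self-administration libraries farthest from the median level Pcdh19 was not called there, at -0.27 (adjusted p 0.354). Of the others called in injected libraries, Pcdh9 (0.98) and Pcdh7 (0.56) were positive, and Pcdhgc4 (-0.64) and Nrxn2 (-0.71) were among 8 negative ones with Pcdh19 (7.66% of all genes were called positive and 5.33% negative). Cdh20 was positive in both (0.43 and 0.34) and called in self-administration only. On the astrocyte level 1 member was called in self-administration libraries (Cdh18, -0.70; 0.971%, against 0.477% of all genes) and 0 in injected libraries (0.266% of all genes), where 19 had an unadjusted p under 0.05 (12.7% of all genes). On the level of hypothalamus and mammillary body markers, which stand for neighbouring tissue, 0 members were called in self-administration libraries (0.00701% of all genes), 7 of them at an unadjusted p under 0.05 (9.76% of all genes). In injected libraries 13 were called (12.6%, against 15.6%), 10 of them positive and 3 negative (7.75% and 7.82% of all genes). Lrrtm4 (0.55), Cdh23 (0.47) and Lrrtm1 (0.47) had the largest of these slopes. The 2 injected libraries of highest dopamine level had hypothalamus levels of 1.45 and 1.55, and the 2 of lowest had 1.79 and 2.24 (median of injected libraries 1.86). Each level was fitted alone, so whether these slopes are separate from the negative dopamine slopes of Lrrtm1 and Lrrtm4 was not tested.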

How the data were processed

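RNA of VTA tissue was extracted with an RNeasy kit and made into TruSeq libraries, per the labels' protocols. The deposited table gives FPKM per gene symbol, 1 column per library, which the authors made with Bowtie and Cuffnorm on genome build mm10, per the submitters' processing notes. Versions, annotation, library scaling and strand setting are not given there. FPKM keeps no read depth, so no counting interval is given; the FPKM sum per library was 398577 to 457508.

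A mean of 0.5 FPKM or more over the 59 libraries was required, which 14263 genes met. They were tested on log2(FPKM + 1) with limma 3.58.1 in R 4.3.3 (two-sided; eBayes with its trend and robust settings). This is the same filter as that of the members. P-values were adjusted by Benjamini-Hochberg over all 14263 genes, and 0.05 was the threshold. Differences are on the log2(FPKM + 1) scale, which understates changes of low genes. Groups came from the labels. Cocaine was compared with saline within each paradigm, over paradigms with paradigm as a term, and between paradigms as differences of effects; self-administration was compared with the mean of the 3 other groups given the same agent. Slopes had a marker list's mean log2(FPKM + 1) as covariate beside group means. The scripts were tested on simulated data. Figures used Python 3.11.15, pandas 2.3.3 and matplotlib 3.10.9. Gene positions and lengths are from GENCODE M21 (101 of 103 members matched by symbol) and promoters from RefSeq.

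The members, gene lists and marker lists were chosen with earlier results of these data known. Genes named with values are the 6 of smallest p in each cocaine comparison and the average. In self-administration against the other paradigms they are up to 10 per direction called in both saline and cocaine libraries, and for marker slopes up to 5 per direction called in both sets. The 4 of smallest p among injected saline groups, the highest and lowest member of each subfamily, and the neurexins and neuroligins complete the rule. Values of 1 member that the rule names are not reported here. Other genes named were chosen after their values were seen. Alternatives were another pseudocount, no filter or 1 FPKM, quantile normalization, library weights, plain empirical Bayes, removal of the transcript length trend, leaving out each library, and leaving out the 2 libraries of most extreme marker level.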

Additional observations from a re-analysis of the deposited data

Results flagged for a closer look

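Among groups of 4 to 10 libraries, 42 combinations of a gene and a group were examined for a library far from the rest, and 3 were picked out, where chance picks about 5%. Cdh18 in acute cocaine libraries had a lowest value of 11.59 FPKM, with the next at 12.29 and the highest at 12.57 FPKM. Pcdh15 in acute saline libraries had a lowest value of 2.376 FPKM, with the next at 2.747 and the highest at 2.862 FPKM. Pcdh15 in chronic cocaine libraries had a highest value of 2.705 FPKM, with the next at 2.412 and the lowest at 2.329 FPKM.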

How the results depend on the processing

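Counts of called members stayed within 1.5 times the reported value under 156 of 168 settings other than leaving out 1 library, and under all 549 that left out 1. In self-administration against the other paradigms, leaving out 1 library gave 42 to 49 called members in cocaine (reported 47) and 36 to 49 in saline libraries (reported 42); every cocaine comparison stayed at 0. With dopamine neuron and oligodendrocyte levels as covariates, chosen after the data were seen as were the dopamine covariate and the slope difference, the counts were 13 in cocaine and 12 in saline libraries, and Cdh20 in cocaine libraries turned to 0.013 (adjusted p 0.934), with the cause not tested. Library weights gave 1 called member in the average of paradigms (Pcdh15), 5 on the oligodendrocyte slope in self-administration, 0 on the astrocyte slope in self-administration and 16 in injected libraries. No filter gave 1 on the oligodendrocyte slope in self-administration. Without the 2 libraries farthest from the median level, fewer libraries left 1 called member on the dopamine slope and 0 on the oligodendrocyte slope in self-administration. In injected libraries the same step left 4 on the oligodendrocyte, 3 on the astrocyte and 8 on the hypothalamus slope. Apart from the fit with both covariates, the share of all genes called was not computed under these settings. A change in these counts therefore cannot be told from a change in all genes. The members' median cocaine difference stayed negative without any 1 library, at -0.06 to -0.03 after acute injection, -0.04 to -0.02 after chronic injection, -0.05 to -0.01 after conditioning and -0.05 to -0.01 after self-administration. No paired analysis was possible because the table's columns carry numbers counted from 0 that cannot be tied to the replicate numbers of the labels, so the planned fit with the replicate number as a block was not run. Depth is unknown, which limits what can be said of members near 0.5 FPKM.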
